A study of Homo sapiens with 8 samples.

Results

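The difference in the response to house dust mite (HDM) extract between cells given LY96 siRNA and cells given control siRNA was measured in BEAS-2B, an immortalised human bronchial epithelial cell line. All 8 libraries of the study entered: 1 with control siRNA and PBS, 3 with control siRNA and HDM extract, 1 with LY96 siRNA and PBS, and 3 with LY96 siRNA and HDM extract. Cells were kept in BEGM medium, moved to BEBM medium 24 h before stimulation and harvested 24 h after it, so a medium change and a transfection are shared by every group. Doses of siRNA and extract are not stated in the labels. Of 26485 genes in the tables, 12604 had a mean of at least 1 FPKM (sequenced fragments scaled to transcript length and to library size) over the 8 libraries and were tested. Near that limit, WDR17 was inside at a mean of 1.00141 FPKM and ANKRD18B outside at 0.99998 FPKM.

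LY96 encodes MD-2, the protein that holds the lipid part of lipopolysaccharide against the receptor TLR4. Signalling from TLR4 and from cytokine receptors reaches the transcription factor NF-kB, which switches on chemokine genes in airway epithelium. The integrated stress response is a separate pathway, in which cells short of amino acids or with unfolded protein slow translation while making more of the transcription factor ATF4, and ATF4 switches on genes of amino acid synthesis and transport. Cornification, the hardening of squamous epithelium, uses small proline-rich proteins, kallikrein proteases and other barrier proteins.

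Each gene was described by 3 differences on the log2(FPKM + 1) scale: LY96 siRNA minus control siRNA with PBS (1 library against 1), the same with HDM (3 against 3), and the second minus the first, which equals the HDM response with LY96 siRNA minus the HDM response with control siRNA. A difference was called at a Benjamini-Hochberg adjusted p under 0.05 in a limma model of all 8 libraries. The spread came from the 6 HDM libraries alone, because each siRNA had 1 PBS library. Nothing in the labels ties the 3 libraries of a group to separate cultures. If they came from one culture, the p-values reflect technical spread only.

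LY96 was listed at 0 FPKM in all 8 libraries, so its depletion could not be checked, and the groups are named by their labels. Library totals ranged from 329777 to 340328 FPKM, and read depth is unknown. Of the airway epithelial markers, 8 of 13 were tested, namely keratins, EPCAM, CDH1 and TP63, which are not particular to airway. The other markers were FOXJ1, SCGB1A1, MUC5AC and SFTPC, these 4 at 0 in every library, and MUC5B, at 0.0193 FPKM or less. The summed level of all 13 ranged from 1176 to 1359 FPKM. Leukocyte markers summed to 16.2 and 19.2 FPKM with PBS and to 26.1 to 32.1 FPKM with HDM, with 2 of 15 tested (CD68 and CD74) and 7, among them PTPRC and CD3E, at 0 in every library. Fibroblast markers summed to 34.1 to 45.5 FPKM with 2 of 10 at 0 in every library, and endothelial markers to at most 0.541 FPKM with 2 of 8 at 0. Ribosomal RNA took 0.77% of the total with PBS and control siRNA, 0.826% with PBS and LY96 siRNA, 0.475% to 0.824% in the control siRNA HDM libraries and 1.03% to 1.31% in the LY96 siRNA HDM libraries.

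Promoter stretches are shown first for genes from 3 groups that recur below: targets of the stress response, chemokines, and an interferon-stimulated gene. RefSeq start sites (GRCh38.p14) gave a 300-base window, 250 bases before the start to 50 after it, for 9319 of the 12604 genes. The motifs searched on both strands were TGATGNAA, a composite C/EBP and ATF element, GGANTTTCC, an NF-kB element, and GAAANNGAA, the core of the interferon-stimulated response element. Capitals mark the match in stretches of 60 bases, written 5′ to 3′ along the gene's strand. The C/EBP and ATF element lay 68 bases before the start of ASNS, and on the opposite strand 209 bases before that of CHAC1 and 176 bases before that of HERPUD1:
ASNS (chr7:97872443-97872502, minus strand): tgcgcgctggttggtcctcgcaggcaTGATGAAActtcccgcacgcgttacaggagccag
CHAC1 (chr15:40953236-40953295, plus strand): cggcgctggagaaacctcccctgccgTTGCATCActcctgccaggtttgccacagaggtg
HERPUD1 (chr16:56931940-56931999, plus strand): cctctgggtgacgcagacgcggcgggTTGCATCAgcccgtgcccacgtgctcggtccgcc
The NF-kB element lay 91, 78, 89 and 77 bases before the starts of these neutrophil chemokine genes, in the same letters each time:
CXCL8 (chr4:73740452-73740511, plus strand): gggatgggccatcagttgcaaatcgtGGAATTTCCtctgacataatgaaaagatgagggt
CXCL1 (chr4:73869289-73869348, plus strand): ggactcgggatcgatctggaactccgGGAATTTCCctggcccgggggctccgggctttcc
CXCL6 (chr4:73836563-73836622, plus strand): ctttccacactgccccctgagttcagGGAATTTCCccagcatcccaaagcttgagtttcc
CXCL2 (chr4:74099239-74099298, minus strand): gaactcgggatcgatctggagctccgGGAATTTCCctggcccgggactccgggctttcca
The interferon element core matched 107 and 95 bases before the start of IFI27, once on each strand:
IFI27 (chr14:94110609-94110668, plus strand): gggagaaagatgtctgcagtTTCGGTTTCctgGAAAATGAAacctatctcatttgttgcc

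Among all windows, 1.48% held the C/EBP and ATF element, 1.64% the NF-kB element and 6.32% the interferon core. The first was found in 5 of 11 windows (45.5%) of amino acid synthesis and transport genes and in 2 of 18 (11.1%) of ATF4 and CHOP stress response genes. As many stress response windows, 2 of 18, held the NF-kB element. Each stretch shown holds a match, while the windows of DDIT3, TRIB3 and CCL20 held none. Only 1 start site per gene was searched, so any other start of these genes was not covered. For example, the TRIB3 window (chr20:381045-381344) lay within the gene's GENCODE v29 span (chr20:362835-397559). The NF-kB element was found in 6 of 8 chemokine windows (75%), and the interferon core in 24 of 33 windows of interferon-stimulated genes (72.7%). None of the 6 windows of the genes called for the difference in HDM response held any of these motifs, which says only that these letters are not in those windows. These are matches of letters and not measured binding.

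The HDM response was called different between the siRNAs in 7 of 12604 genes, and in each of the 7 the rise with HDM was larger with LY96 siRNA. They were PTX3, SLC7A11, DDIT3, STC2, MTHFD2, ATF4 and SOD2. These calls depended on the model. With plain moderation, which leaves out the mean-variance trend and the robust step, 0 genes were called (smallest adjusted p 0.129, limma). With the replicate number as a block, 2 of the 7 were called. The called share was 0.0555% for a larger response and 0% for a smaller one. No gene was called lower by limma, while 523 genes above 0 and 433 below 0 had an unadjusted p under 0.05. In all 7 the rise with HDM was called with LY96 siRNA, and in 2, STC2 and SOD2, also with control siRNA. Across all genes, the HDM response was called higher in 195 genes (1.55%) and lower in 93 (0.738%) with control siRNA, and higher in 367 (2.91%) and lower in 250 (1.98%) with LY96 siRNA. Leaving out 1 HDM library at a time gave between 0 genes (without control HDM replicate 1) and 31 higher and 2 lower genes (without LY96 HDM replicate 2), with 3 higher and 2 lower, 2 higher and 1 lower, 2 higher, and 4 higher without control replicate 2, control replicate 3, LY96 replicate 1 and LY96 replicate 3.

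The 7 genes were sorted by their siRNA difference with PBS, with a limit of 0.25 on the log2 scale. In 5 of them (PTX3, SLC7A11, MTHFD2, ATF4 and SOD2) the PBS difference was under the limit and the HDM difference was called, so the siRNA difference appeared with HDM. In STC2 a PBS difference of 0.34 in the same direction, itself not called, grew with HDM. In DDIT3 the PBS difference of -0.25, also not called, lay on the other side of 0 (95% interval -0.55 to 0.04). With 1 PBS library per siRNA, a PBS difference under the limit does not show that there was none: the 95% interval ran from -0.42 to 0.56 for PTX3 and from -0.06 to 0.32 for ATF4. No gene had a called PBS difference that closed or shrank by a called amount with HDM.

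PTX3 (chr3:157436789-157443628), a secreted pattern-recognition protein of innate defence, had the largest called difference. It was at 0.0806 FPKM in the control siRNA PBS library, at 1.15, 0.723 and 0.554 FPKM with control siRNA and HDM, at 0.135 FPKM with PBS and LY96 siRNA, and at 5.73, 6.47 and 6.85 FPKM with LY96 siRNA and HDM. Every LY96 siRNA HDM library lay above every control siRNA HDM library, and both PBS libraries lay below all 6. The HDM response was larger by log2 1.96 ± 0.25 (SE, adjusted p = 0.0467, limma). SLC7A11 (chr4:138164097-138242349), the cystine importer that feeds glutathione synthesis, was at 0.883 FPKM with PBS and control siRNA, and at 1.09, 1.25 and 1.03 FPKM with HDM. With LY96 siRNA it was at 0.949 FPKM with PBS and at 6.21, 7.24 and 5.93 FPKM with HDM. The 3 LY96 siRNA HDM libraries stood apart from the other 5 (1.76 ± 0.17 SE, adjusted p = 0.0384, limma).

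ATF4 and DDIT3, the gene for CHOP, encode transcription factors of the stress response. ATF4 (chr22:39519695-39522685) was at 123 FPKM with PBS and control siRNA, at 145, 139 and 132 FPKM with HDM, at 135 FPKM with PBS and LY96 siRNA, and at 258, 282 and 254 FPKM with HDM. The control siRNA HDM libraries overlapped the level of the LY96 siRNA PBS library, and the LY96 siRNA HDM libraries were above all others (0.80 ± 0.09 SE, adjusted p = 0.043, limma). DDIT3 (chr12:57516588-57521737) was at 8.51 FPKM with PBS and control siRNA and at 8.74, 9.43 and 9.91 FPKM with HDM. With LY96 siRNA it was at 6.97 FPKM with PBS, the lowest of the 8, and at 21.8, 24.2 and 19.6 FPKM with HDM, the highest (1.39 ± 0.15 SE, adjusted p = 0.043, limma). STC2 (chr5:173314713-173329503), a secreted glycoprotein that is a target of ATF4, was at 5.48 FPKM and then 8.82, 8.01 and 8.31 FPKM with control siRNA, and at 7.20 FPKM and then 25.8, 29.6 and 24.1 FPKM with LY96 siRNA. It rose 1.53-fold with HDM in the first case and 3.68-fold in the second, as ratios of mean FPKM (1.21 ± 0.14 SE, adjusted p = 0.043, limma).

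MTHFD2 (chr2:74198562-74217565), a mitochondrial enzyme of folate metabolism, was at 39.2 FPKM with PBS and control siRNA and at 44.7, 45.6 and 43.0 FPKM with HDM. It was at 38.4 FPKM with PBS and LY96 siRNA and at 82.9, 97.7 and 86.5 FPKM with HDM, above the other 5 libraries (1.01 ± 0.11 SE, adjusted p = 0.043, limma). SOD2, the mitochondrial superoxide dismutase and a target of NF-kB, rose with control siRNA as well, as STC2 did. It went from 30.3 to 75.2, 79.5 and 80.4 FPKM with control siRNA and from 32.5 to 126, 127 and 134 FPKM with LY96 siRNA, and the rises were 2.59-fold and 3.96-fold (0.61 ± 0.08 SE, adjusted p = 0.043, limma).

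In all 7 genes every LY96 siRNA HDM library exceeded every control siRNA HDM library by more than the PBS difference. Leaving out a single HDM library therefore could not change the sign, and the PBS libraries, 1 per siRNA, could not be left out. The difference in response ran from 1.86 to 2.09 for PTX3 and from 0.582 to 0.629 for SOD2 in these fits. The adjusted p of each of the 7 genes crossed 0.05 in some of them. SLC7A11 kept its call in 4 of 6, losing it without control HDM replicate 1 (0.0681) and LY96 HDM replicate 1 (0.0566). DDIT3, STC2 and MTHFD2 kept it in 2 of 6, and PTX3, ATF4 and SOD2 in 1 of 6, that without LY96 HDM replicate 2. DDIT3 and STC2 lost it without each control HDM library and LY96 HDM replicate 1 (adjusted p up to 0.0878 and 0.113), and MTHFD2 without each control HDM library and LY96 HDM replicate 3 (up to 0.133). The highest adjusted p was 0.101 for PTX3 and 0.0878 for ATF4 and SOD2. The highest ribosomal RNA shares were those of the same LY96 siRNA HDM libraries, at 1.03% to 1.31%, and their part in the result was not tested.

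**Figure D1:**
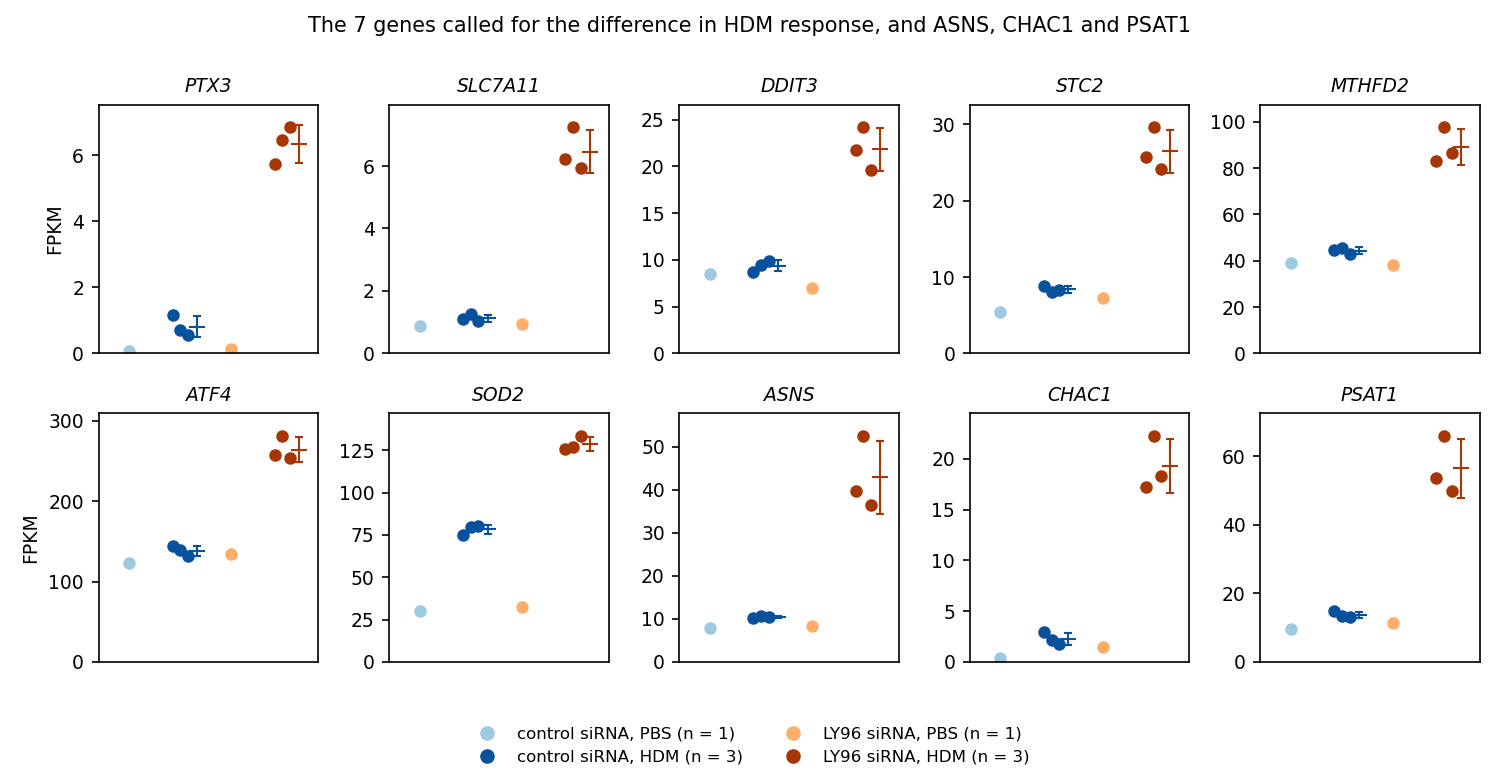
FPKM per library (vertical axes, each from 0) of the 7 genes called for the difference in HDM response and of ASNS, CHAC1 and PSAT1, which were not called; points are libraries, and bars beside the HDM points are the mean ± SD of 3. In each panel the 3 LY96 siRNA HDM libraries lie above the other 5.

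The stress response genes were described as a list of 19 tested members. Their median difference in HDM response was 0.568, beside 0.002 over all genes, and 19 of 19 lay above 0, where 6382 of 12604 genes did. DDIT3, STC2 and ATF4 were called. The list's median siRNA difference was 0.074 with PBS and 0.683 with HDM, and 17 of 19 were called higher with HDM, beside 6.66% of all genes. The median HDM response was 0.15 with control siRNA, with 2 called higher, and 0.698 with LY96 siRNA, with 16 called higher, beside 1.55% and 2.91% of all genes. These medians share libraries, so they do not count as separate evidence. This list and those below were chosen with earlier results of these data known, so their counts are descriptions only.

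CHAC1, a glutathione-degrading enzyme whose promoter match is shown above, was at 0.431 FPKM with PBS and control siRNA, at 2.93, 2.12 and 1.74 FPKM with HDM, at 1.52 FPKM with PBS and LY96 siRNA, and at 17.2, 22.3 and 18.3 FPKM with HDM. Its LY96 siRNA PBS library lay below the control siRNA HDM libraries and above the control siRNA PBS library. That PBS difference, 1 library against 1 at low levels, was not called (0.82 ± 0.25 SE, adjusted p = 0.188, limma). The difference in response was 1.83 ± 0.29 (SE, adjusted p = 0.115). Other members not called were DDIT4, an inhibitor of mTORC1 (1.09 ± 0.19 SE, adjusted p = 0.182), SESN2, a sensor of leucine (1.08 ± 0.19 SE, adjusted p = 0.128), NUPR1, a stress-induced chromatin protein (1.00 ± 0.27 SE, adjusted p = 0.488), and TRIB3, a pseudokinase (0.99 ± 0.22 SE, adjusted p = 0.383). In each of these 4 genes the siRNA difference with HDM was called.

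Enzymes and carriers that supply amino acids formed the next groups. In the amino acid synthesis and transport list, 13 of 13 tested members lay above 0 (median 0.564), 1 of them called, SLC7A11. ASNS, asparagine synthetase, was at 7.96 FPKM and then 10.2, 10.7 and 10.4 FPKM with control siRNA, and at 8.39 FPKM and then 39.7, 52.6 and 36.5 FPKM with LY96 siRNA. The LY96 siRNA HDM libraries were above all others but also the most spread, and the difference of 1.86 ± 0.26 (SE) was not called (adjusted p = 0.117, limma). Among the 13 serine, glycine and one-carbon enzymes the median was 0.483 and 9 lay above 0, with MTHFD2 called. PSAT1, which makes phosphoserine, went from 9.74 to 14.8, 13.3 and 13.2 FPKM with control siRNA and from 11.3 to 53.6, 66.0 and 49.8 FPKM with LY96 siRNA (1.76 ± 0.20 SE, adjusted p = 0.0779). PHGDH and PSPH, the enzymes before and after it, had differences of 0.72 ± 0.11 (SE, adjusted p = 0.0971) and 0.79 ± 0.19 (SE, adjusted p = 0.346).

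The aminoacyl-tRNA synthetases, which load amino acids onto tRNA, were taken by compartment. The 20 cytosolic enzymes had a median of 0.176 with 15 above 0, and the 17 mitochondrial enzymes had a median of 0.021 with 11 above 0. No member of either list was called for the difference in response, and the difference between the lists was not tested. With HDM, 10 of 20 cytosolic enzymes were called higher with LY96 siRNA and 0 lower, against 0 higher and 1 lower of 17 mitochondrial ones, beside 6.66% and 8.95% of all genes. YARS, the tyrosine enzyme, was at 17.0 FPKM and then 20.5, 20.7 and 19.5 FPKM with control siRNA, and at 18.9 FPKM and then 36.7, 40.0 and 35.1 FPKM with LY96 siRNA (0.71 ± 0.10 SE, adjusted p = 0.0779, limma). GARS, CARS and AARS, for glycine, cysteine and alanine, had differences of 0.77, 0.74 and 0.58. HERPUD1, a protein of endoplasmic reticulum degradation, stood at 0.64 ± 0.09 (SE, adjusted p = 0.0779), while the 23 endoplasmic reticulum chaperone genes had a median of 0.029, which was -0.012 after quantile normalization. The siRNA difference with HDM was called higher in 7 of these 23 and lower in 0, beside 6.66% and 8.95% of all genes.

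Most chemokine genes rose with HDM under both siRNAs, and their estimates were mostly larger with LY96 siRNA. Of 11 tested, 9 were called higher with HDM under each siRNA, beside 1.55% and 2.91% of all genes, with a median response of 1.419 with control siRNA and 2.277 with LY96 siRNA, and 8 lay above 0 for the difference in response (median 0.629). None of the 11 was called for that difference. The siRNA difference with HDM was called higher in 8 of 11, beside 6.66% of all genes, and the median siRNA difference with PBS was 0.141.

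CXCL8, the gene for interleukin-8, was at 0.590 FPKM with PBS and control siRNA, at 7.52, 7.81 and 7.26 FPKM with HDM, at 0.607 FPKM with PBS and LY96 siRNA, and at 15.9, 20.0 and 20.5 FPKM with HDM. The PBS libraries were close, and the HDM groups did not overlap (1.19 ± 0.18 SE, adjusted p = 0.0889, limma). CXCL1, another neutrophil attractant, went from 1.56 to 24.4, 25.6 and 26.7 FPKM with control siRNA and from 2.01 to 48.6, 56.6 and 70.7 FPKM with LY96 siRNA. As ratios of mean FPKM these were 16.4-fold and 29.2-fold, and the LY96 siRNA HDM libraries were widely spread (0.92 ± 0.26 SE, adjusted p = 0.516). CCL20, which attracts dendritic cells and lymphocytes through CCR6, was listed at 0 with control siRNA and PBS, at 1.71, 1.89 and 1.45 FPKM with HDM, at 0.137 FPKM with PBS and LY96 siRNA, and at 4.93, 5.83 and 5.96 FPKM with HDM (1.11 ± 0.19 SE, adjusted p = 0.107). CXCL6 was likewise listed at 0 with control siRNA and PBS, and its HDM groups did not overlap, at 1.53 to 1.68 FPKM and 3.62 to 6.09 FPKM.

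CCL2, a monocyte chemokine, and CXCL2 had smaller estimates, 0.21 ± 0.12 (SE, adjusted p = 0.735) and 0.49 ± 0.28 (SE, adjusted p = 0.738, limma). CCL2 rose 6.32-fold with control siRNA and 7.22-fold with LY96 siRNA, and its siRNA difference was 0.34 with PBS, not called, and 0.56 with HDM, called. IL32, an inflammatory cytokine gene, lay on the other side of 0 at -0.14 ± 0.14 (SE, adjusted p = 0.849), with a siRNA difference of 0.68 with PBS (adjusted p = 0.0641) and 0.54 with HDM (adjusted p = 0.00243). IL6 had a difference of 0.65 ± 0.24 (SE, adjusted p = 0.569), and the acute-phase gene SAA1 one of 0.42 ± 0.18 (SE, adjusted p = 0.659).

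In the NF-kB list of 21 tested subunits, targets and feedback regulators, the median was 0.192, 15 lay above 0 and SOD2 was called. TNFAIP2, a tumour necrosis factor induced gene, was at 7.68 FPKM and then 26.1, 26.9 and 26.7 FPKM with control siRNA, and at 7.60 FPKM and then 39.6, 43.3 and 46.1 FPKM with LY96 siRNA (0.69 ± 0.11 SE, adjusted p = 0.0889, limma). The HDM groups did not overlap and the PBS libraries were close. The feedback inhibitors NFKBIA and TNFAIP3 had differences of 0.21 ± 0.11 and 0.37 ± 0.14 (SE). ICAM1, the adhesion molecule for leukocytes, reached a like level with HDM, at 45.7 to 48.9 FPKM with control siRNA and 47.3 to 51.1 FPKM with LY96 siRNA, from 24.1 and 19.1 FPKM with PBS (0.39 ± 0.08 SE, adjusted p = 0.196). The 19 tested TLR4 pathway components had a median of -0.004, with TLR4 itself at -0.20 ± 0.15 and the adaptor MYD88 at -0.20 ± 0.08 (SE).

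**Figure D2:**
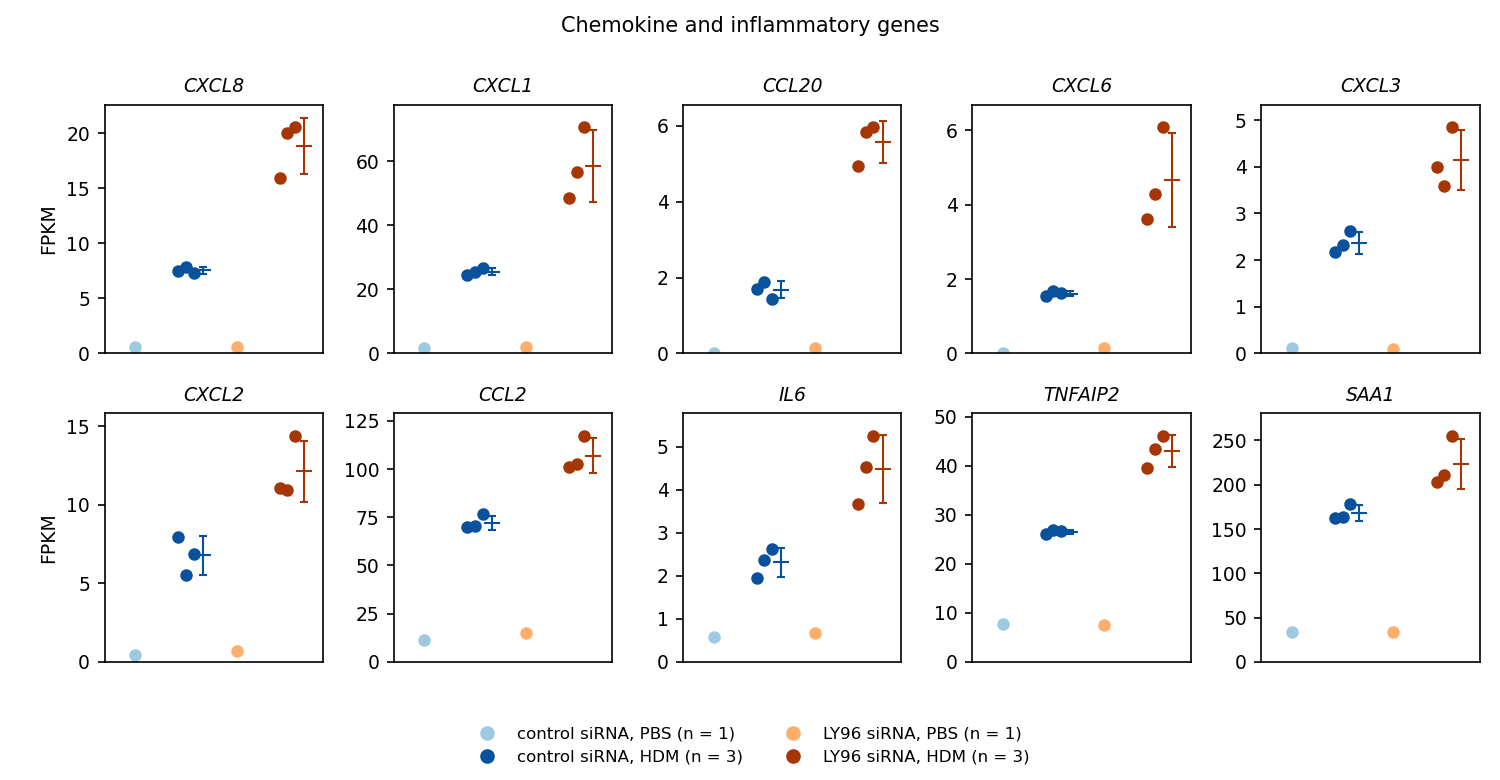
FPKM per library (vertical axes, each from 0) of 10 chemokine and inflammatory genes; points are libraries, and bars beside the HDM points are the mean ± SD of 3. HDM libraries lie above both PBS libraries in every panel, and CXCL8 goes from 0.590 to 7.26 to 7.81 FPKM with control siRNA and from 0.607 to 15.9 to 20.5 FPKM with LY96 siRNA.

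A much larger set of genes differed between the siRNAs without a called difference in response. With HDM, 840 genes were called higher (6.66%) and 1128 lower (8.95%) with LY96 siRNA, and with PBS 32 were called higher (0.254%) and 27 lower (0.214%). In 51 genes, 26 higher and 25 lower, the siRNA difference was called in both conditions with the same sign and the difference in response was not called. These were classed as already different with PBS, by calls that depended on the model: with plain moderation 0 genes were called higher and 2 lower with PBS. A further 1910 genes were called with HDM but neither with PBS nor for the response, and could not be placed in either class. In 8 genes the call was made with PBS and not with HDM. The PBS calls rest on 1 library per siRNA and on the spread among HDM libraries.

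FEN1 (chr11:61792637-61797244), a flap endonuclease of DNA replication and repair, had the smallest adjusted p with PBS. It was at 76.6 FPKM with PBS and control siRNA, at 68.0, 69.5 and 69.8 FPKM with HDM, at 33.4 FPKM with PBS and LY96 siRNA, and at 31.6, 34.2 and 34.6 FPKM with HDM. The 4 LY96 siRNA libraries lay below the 4 control siRNA libraries with no overlap. The siRNA difference was -1.17 ± 0.07 (SE, adjusted p = 0.000459) with PBS and -1.03 ± 0.04 (SE, adjusted p = 1.21e-05) with HDM, and the difference in response was 0.15 with a 95% interval of -0.03 to 0.33. A neighbouring gene on the chromosome differed the other way: FADS1 (chr11:61799625-61829318), a fatty acid desaturase, was at 35.6 FPKM and then 41.8, 41.5 and 41.5 FPKM with control siRNA, and at 55.8 FPKM and then 63.9, 64.4 and 66.4 FPKM with LY96 siRNA. Its siRNA difference was 0.63 in each condition, and HDM raised it by 0.22 and 0.21, both called.

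IFI27 (chr14:94104836-94116698), a mitochondrial protein gene induced by interferon, was at 249 FPKM with PBS and control siRNA, at 227, 303 and 267 FPKM with HDM, at 77.3 FPKM with PBS and LY96 siRNA, and at 80.6, 82.5 and 79.0 FPKM with HDM. The siRNA groups did not overlap in either condition, and HDM moved neither by a called amount. The siRNA difference was -1.67 ± 0.18 (SE, adjusted p = 0.0339, limma) with PBS and -1.70 ± 0.10 (SE, adjusted p = 0.000541) with HDM, and the difference in response had a 95% interval of -0.52 to 0.48. The PBS call was lost without control HDM replicate 3 and without each LY96 HDM library, with an adjusted p of up to 0.0872. Over the 43 tested interferon-stimulated genes the median siRNA difference was -0.165 with PBS, with 2 called lower, beside a median of -0.021 and 0.214% called lower over all genes. With HDM it was -0.279, with 21 called lower and 1 higher, beside a median of -0.019 and 8.95% and 6.66% over all genes, and the median difference in response was -0.068.

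Cornification genes had lower levels with LY96 siRNA in most cases, with PBS as with HDM. Over 25 tested members the median siRNA difference was -0.899 with PBS and -0.907 with HDM, beside -0.021 and -0.019 over all genes, and the median difference in response was -0.002, with 12 above 0. With HDM 20 were called lower, beside 8.95% of all genes, and with PBS 4, beside 0.214%: CNFN, KLK8, KRTDAP and KLK10. CNFN, cornifelin, was at 11.7 FPKM and then 8.49, 7.13 and 6.32 FPKM with control siRNA, and at 4.32 FPKM and then 4.07, 4.39 and 4.13 FPKM with LY96 siRNA. It fell with HDM under control siRNA (-0.62, adjusted p = 0.042) and lay around its PBS level under LY96 siRNA, and the difference in response of 0.58 ± 0.18 (SE) was not called (adjusted p = 0.479). KRTDAP, a keratinocyte differentiation protein, was at 40.4 FPKM and then 29.5, 25.2 and 30.2 FPKM with control siRNA, and at 11.4 FPKM and then 8.19, 11.3 and 8.96 FPKM with LY96 siRNA. SPRR2G, a small proline-rich protein outside the list, had a siRNA difference of -1.73 with PBS and -1.08 with HDM.

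Some of these PBS calls moved with single HDM libraries, which enter through the spread and leave the PBS difference itself unchanged. CNFN kept its call whichever library was left out. KRTDAP lost it without control HDM replicates 1 and 3 and LY96 HDM replicate 3 (adjusted p up to 0.0807), and SPRR2G without control HDM replicate 1 (0.0517). KLK10 lost it without control HDM replicate 3 and each LY96 HDM library, and KLK8 in every such fit but that without control HDM replicate 2 (up to 0.0726 each).

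Basement membrane and matrix genes were mostly higher with LY96 siRNA where called. In the extracellular matrix list of 23 tested genes the median siRNA difference was 0.280 with PBS and 0.234 with HDM, 6 were called higher with PBS, beside 0.254% of all genes, and 14 with HDM, beside 6.66%, while 0 were called lower with PBS and 2 with HDM, beside 0.214% and 8.95%, and the median difference in response was -0.068. LAMB3, a laminin chain of the epithelial basement membrane, was at 11.7 FPKM and then 11.9, 12.5 and 12.3 FPKM with control siRNA, and at 19.0 FPKM and then 20.5, 19.6 and 20.5 FPKM with LY96 siRNA. The siRNA groups did not overlap and the HDM libraries lay near the PBS library of the same siRNA, with a 95% interval for the difference in response of -0.15 to 0.20. LAMA3, also a laminin chain, had differences of 0.64 with PBS (adjusted p = 0.0617) and 0.31 with HDM (adjusted p = 0.0155, lost without control HDM replicate 1 and LY96 HDM replicates 2 and 3, up to 0.0519). COL5A1 was called in both conditions, at 0.52 and 0.44, the first lost without control HDM replicate 1 (adjusted p = 0.0517).

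COL17A1, a hemidesmosome collagen, and TGFBI, an adhesion protein, were also called in both conditions, with smaller estimates with HDM. COL17A1 was at 15.9 FPKM and then 20.0, 20.1 and 19.3 FPKM with control siRNA, and at 24.5 FPKM and then 23.6, 22.6 and 24.2 FPKM with LY96 siRNA. HDM raised it by 0.30 with control siRNA, a called rise, and the estimate was -0.06 with LY96 siRNA, and the difference of -0.36 ± 0.08 (SE) was not called (adjusted p = 0.243, limma). TGFBI had siRNA differences of 0.53 with PBS and 0.21 with HDM.

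Among single genes already different with PBS, CDH1, the epithelial adhesion protein E-cadherin, was at 26.7 FPKM and then 28.1, 27.0 and 27.3 FPKM with control siRNA, and at 49.7 FPKM and then 41.6, 39.6 and 35.8 FPKM with LY96 siRNA. Its HDM response was 0.04 with control siRNA, not called, and -0.35 with LY96 siRNA, called (adjusted p = 0.031), but the difference in response of -0.39 ± 0.10 (SE) was not called (adjusted p = 0.411). APOE, the lipid carrier apolipoprotein E, was at 25.3 FPKM and then 21.6, 23.7 and 20.8 FPKM with control siRNA, and at 43.5 FPKM and then 33.8, 36.4 and 36.1 FPKM with LY96 siRNA. CCND1, the G1 cyclin D1, was lower with LY96 siRNA, at 22.8 FPKM and then 19.9, 19.8 and 19.6 FPKM with control siRNA, and at 14.2 FPKM and then 9.85, 10.8 and 10.3 FPKM with LY96 siRNA. LCN2, an iron-sequestering defence protein, was lower in both conditions but rose with HDM in both: it went from 7.13 to 15.8, 13.9 and 15.5 FPKM with control siRNA and from 3.09 to 13, 12.1 and 11.6 FPKM with LY96 siRNA. These were rises of 2.12-fold and 3.97-fold, and the difference in response of 0.71 ± 0.12 (SE) was not called (adjusted p = 0.107, limma). The PBS calls of these 4 genes held whichever HDM library was left out. Such fits leave the PBS difference itself unchanged, and it still rests on 1 library per siRNA. The HDM call of LCN2 was lost without control HDM replicates 1 and 3 and LY96 HDM replicate 3 (adjusted p up to 0.0551).

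**Figure D3:**
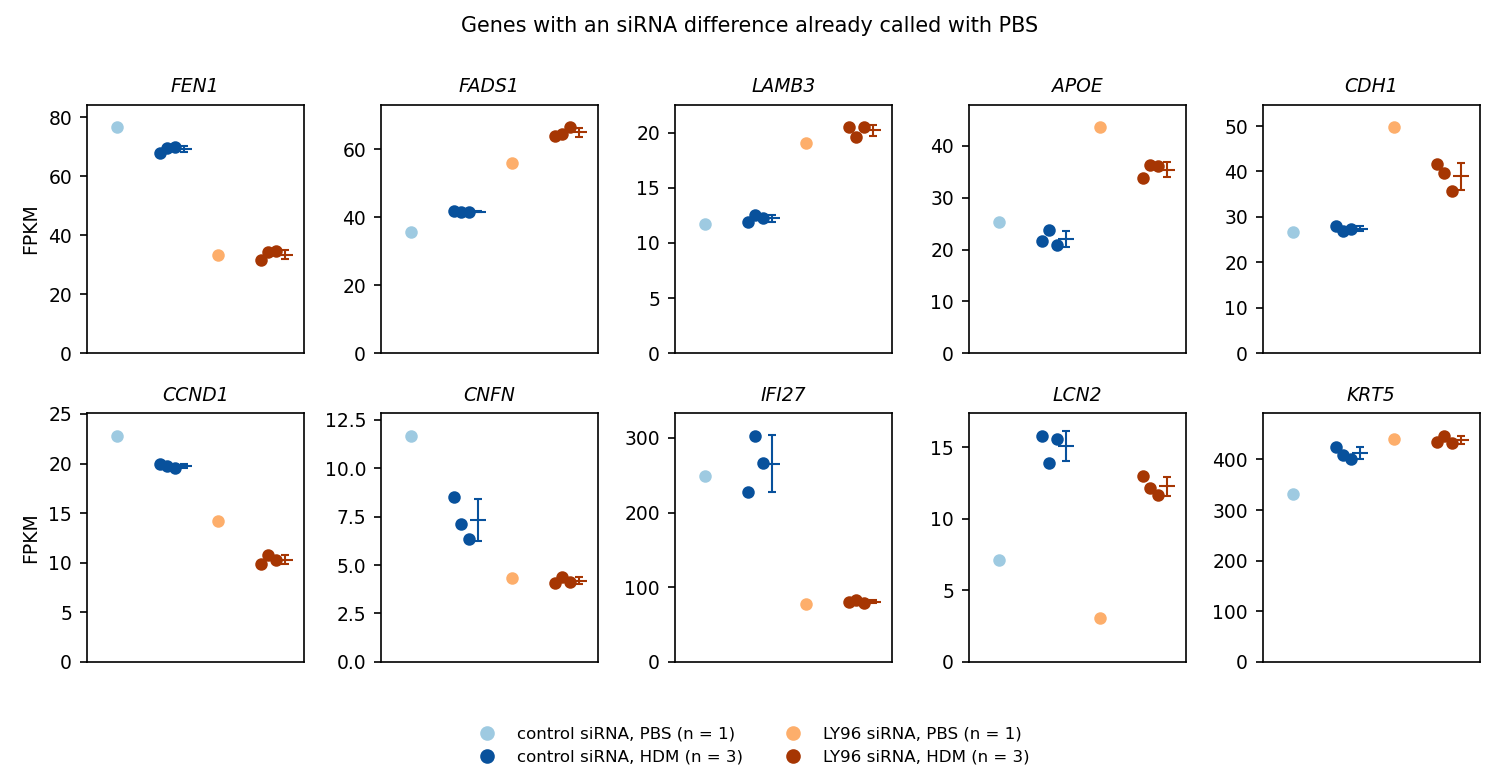
FPKM per library (vertical axes, each from 0) of 9 genes whose siRNA difference was called with PBS and with HDM and of KRT5, called with PBS and not with HDM; points are libraries, and bars beside the HDM points are the mean ± SD of 3. FEN1 lies between 68.0 and 76.6 FPKM in the control siRNA libraries and between 31.6 and 34.6 FPKM in the LY96 siRNA libraries.

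Keratin and junction genes lay mostly below 0 for the difference in response. Of 27 tested, 2 lay above 0 and the median was -0.272, but none was called. The median HDM response was 0.022 with control siRNA, with 3 called higher and 2 lower, and -0.226 with LY96 siRNA, with 0 called higher and 10 lower, beside 1.55% and 0.738% of all genes in the first case and 2.91% and 1.98% in the second. The airway epithelial markers, of which 0 of 8 tested lay above 0 for the difference in response, summed to 1176 to 1240 FPKM in the LY96 siRNA HDM libraries and to 1298 to 1359 FPKM in the other 5, and their part in the result was not tested. The 8 tested markers were KRT5, KRT8, KRT18, KRT19, KRT7, EPCAM, CDH1 and TP63. Most of these are keratin or junction genes themselves, so the markers are not separate evidence beside the list. KRT6B, a keratin of activated epithelium, was at 14.8 FPKM and then 22.4, 22.0 and 22.3 FPKM with control siRNA, and at 14.5 FPKM and then 15.5, 16.7 and 13.8 FPKM with LY96 siRNA. The control siRNA HDM libraries stood above the other 5, and the difference was -0.48 ± 0.12 (SE, adjusted p = 0.383, limma). DSP, the desmosome protein desmoplakin, and EPCAM had differences of -0.46 ± 0.12 (adjusted p = 0.414) and -0.36 ± 0.15 (SE, adjusted p = 0.64).

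KRT5, a basal cell keratin, and SERPINB3, a protease inhibitor, belonged to the 8 genes called with PBS and not with HDM. KRT5 was at 332 FPKM with PBS and control siRNA and at 425, 409 and 401 FPKM with HDM, and at 439.6 FPKM with PBS and LY96 siRNA and at 435, 447 and 432 FPKM with HDM. The control siRNA PBS library was the lowest of the 8 (siRNA difference 0.41 ± 0.05 SE, adjusted p = 0.0181, with PBS and 0.09 ± 0.03 SE, adjusted p = 0.0712, with HDM). SERPINB3 was at 8.97 FPKM and then 9.75, 9.71 and 10.5 FPKM with control siRNA, and at 4.36 FPKM and then 9.44, 8.33 and 11 FPKM with LY96 siRNA. Here the LY96 siRNA PBS library was the lowest of the 8, and the HDM groups overlapped. Its PBS call was lost without each control HDM library and without LY96 HDM replicate 1 (adjusted p up to 0.0935). The differences in response of both, -0.32 ± 0.06 and 0.83 ± 0.17 (SE), were not called (adjusted p = 0.124 and 0.187, limma).

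**Figure D4:**
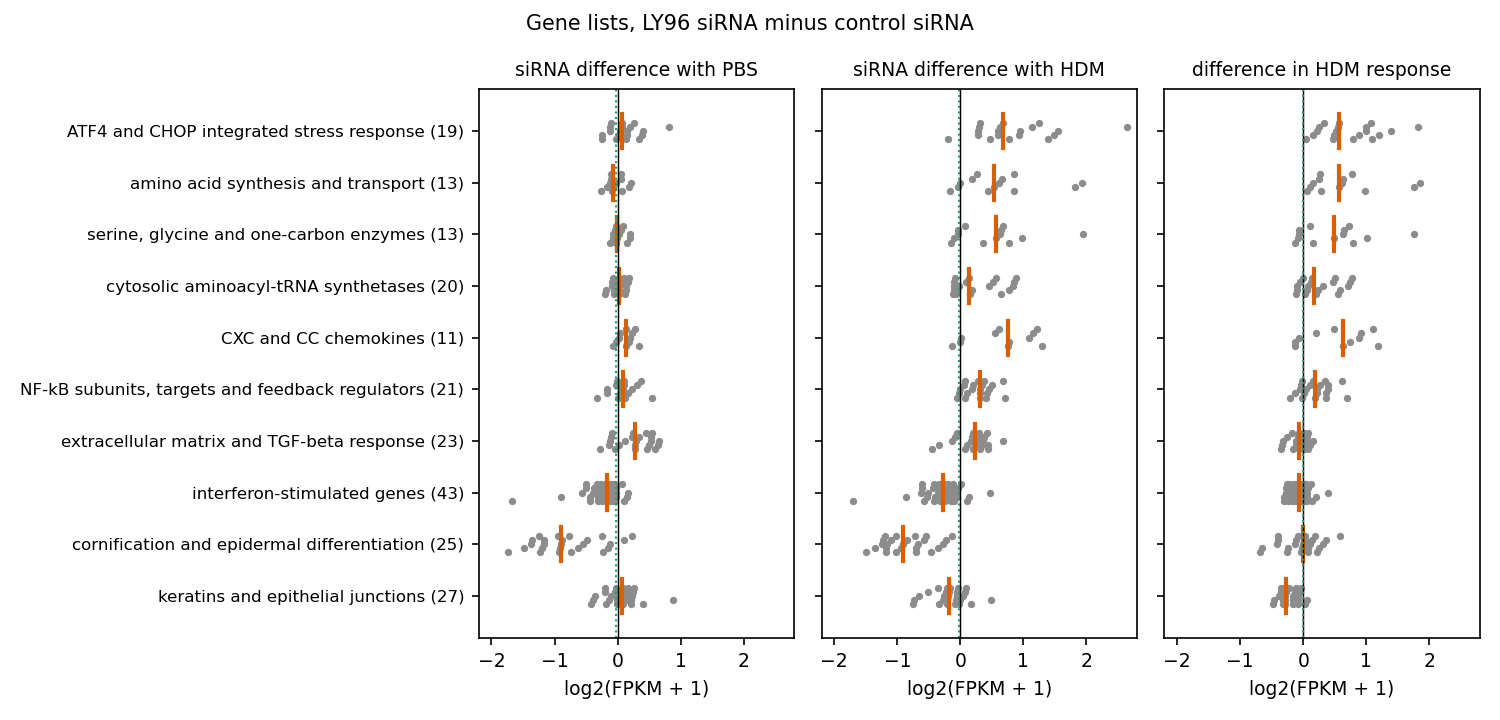
Members of 10 gene lists (grey points, number tested in brackets) on the log2(FPKM + 1) scale for the siRNA difference with PBS, with HDM, and the difference in HDM response; orange bars are list medians, and the dotted line is the median of all genes. The stress response, amino acid and chemokine lists lie to the right with HDM and near 0 with PBS, while the cornification list lies to the left in both, at medians of -0.899 and -0.907.

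The siRNA differences with HDM were set beside those with PBS. The 2 differences share no library, although they share the estimate of the spread. A PBS difference within 0.25 of 0 was found in 10837 of all 12604 genes (86%), in 611 of the 840 called higher with HDM (72.7%) and in 815 of the 1128 called lower (72.3%), so over all called genes the shares of the 2 sides were close. Among the larger differences the shares were further apart. Of the 111 genes called and at least 0.5 higher with HDM, 67 (60.4%) had a PBS difference within 0.25 of 0 and 43 were at least 0.25 higher with PBS too. Of the 89 called and at least 0.5 lower, 13 (14.6%) were within 0.25 and 76 were at least 0.25 lower with PBS. The difference between the sides was not tested. The median PBS difference was 0.176 on the higher side, beside 0.647 with HDM, and -0.494 on the lower side, beside -0.675 with HDM. After median-ratio scaling the counts within 0.25 were 66 of 117 and 12 of 80, and after quantile normalization 68 of 116 and 16 of 87. Across the 1968 genes called with HDM, 1750 (88.9%) had a PBS difference of the same sign. Pearson's r was 0.747 there, against 0.389 across all 12604 genes. By side, r was 0.184 in the 840 called higher and 0.726 in the 1128 called lower. Among those of at least 0.5 it was 0.023 for the 111 higher and 0.773 for the 89 lower. Choosing genes by their HDM difference can itself change r, and genes are not independent replicates.

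**Figure D5:**
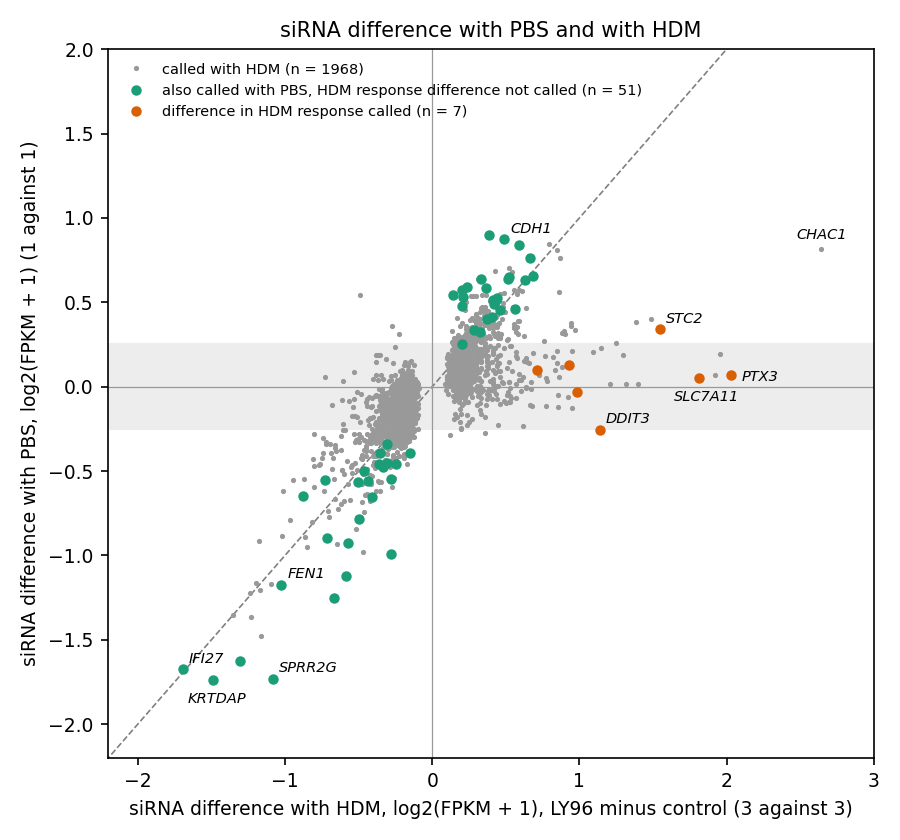
siRNA difference with HDM (horizontal) against that with PBS (vertical), both LY96 siRNA minus control siRNA on the log2(FPKM + 1) scale, for 1968 genes called with HDM (grey), 51 also called with PBS (green) and 7 called for the difference in response (orange); the band marks ±0.25 and the dashed line equality. The orange genes lie along the band or near it, and green genes such as FEN1 and IFI27 near the dashed line.

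A count without a model asked in how many genes the single libraries kept apart. For each gene, the 9 differences between a LY96 siRNA and a control siRNA HDM library were set against the PBS difference. In 172 genes (1.36%) all 9 exceeded it with a mean gap of at least 0.5, and in 84 (0.666%) all 9 lay below it by as much. The 7 called genes were among the 172, as were ASNS, CHAC1, PSAT1, CXCL8, CCL20 and CXCL1. The count uses the same libraries and estimates as the calls, so it is not separate evidence.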

How the data were processed

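RNA of BEAS-2B cells was sequenced in 8 libraries of 4 groups, each deposited as a table of 26485 gene symbols with 1 value per gene. The authors' deposited values carry no named unit and were taken as FPKM, since they hold decimals and their totals differ between libraries. HISAT2 2.2.0 and the build hg38 are named in the submitters' processing notes. For the quantifying program, its annotation and its use of strand, the answer is not given in the sources used here, so values of overlapping, antisense and near-identical genes are uncertain. The depth is unknown, so no counting error was computed; the precision is that of 3 HDM libraries per siRNA. No column of another series was present.

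Groups follow the sample titles. Genes averaging at least 1 FPKM in the 8 libraries were put on the log2(FPKM + 1) scale and tested with limma 3.58.1 in R 4.3.3 (4 group means, mean-variance trend, robust moderation, 4 residual degrees of freedom before moderation). The p-values are two-sided and adjusted by Benjamini and Hochberg's method over 12604 genes. The scale understates changes of low genes, and a low gene higher with LY96 siRNA in both conditions can lie above 0 for the difference in response at equal folds; all 7 called genes kept their sign as ratios of folds, and 2 had a mean under 5 FPKM. The test was tried on simulated data, in which the PBS libraries were given the spread of HDM libraries. Of 191 genes called there for the difference in response, 6 were false calls. Because the spread was set in this way, the trial cannot show how the test does if PBS libraries spread differently.

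The genes, gene lists, classes and tests were chosen with earlier results of these data known. Named genes were the largest called differences in response, the largest siRNA differences of each class, the 4 members of each list with the largest difference in response, and a set of receptor, chemokine, stress response and interferon genes; not every gene under the rule is printed. Coordinates are those of GENCODE v29 (GRCh38), found for 11962 tested genes, and promoter sequences are from RefSeq (GRCh38.p14). Alternatives were the pseudocount, the low-value filter, 2 scalings, plain moderation, a replicate block, the size limits and leaving out each HDM library. Replicate numbers of the 2 siRNAs did not pair the libraries.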

Additional observations from a re-analysis of the deposited data

Results flagged for a closer look

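The HDM response differed between the siRNAs by the test of the difference itself (limma, Benjamini-Hochberg adjusted over 12604 genes) in 7 genes, each with the larger response with LY96 siRNA: PTX3 (log2 1.961), SLC7A11 (1.762), DDIT3 (1.391), STC2 (1.208), MTHFD2 (1.012), ATF4 (0.796) and SOD2 (0.611). Their adjusted p ran from 0.0384 for SLC7A11 to 0.0467 for PTX3, and the 3 LY96 siRNA HDM libraries lay above all 3 control siRNA HDM libraries in each of the 7. Without control HDM replicate 1 none of the 7 was called, and without LY96 HDM replicate 2 all 7 were among 31 genes called higher.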

How the results depend on the processing

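For the difference in HDM response, 7 genes were called higher and 0 lower. The count higher was 13 with no low-value filter, 14 with a mean of at least 5 FPKM, 14 after quantile normalization, 0 with plain moderation (smallest adjusted p 0.129) and 3 with the replicate number as a block, and the count lower was 7 with no low-value filter and 1 with a mean of at least 5 FPKM. Of the 7 called genes, 1 was called with no filter, 5 with the stricter filter, 7 after either scaling and 2 with the block. Leaving out each HDM library gave 0 to 31 higher and 0 to 2 lower. The replicate numbers share only a number: deviations of same-numbered libraries correlated at 0.034, -0.019 and -0.022.

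The siRNA difference with PBS, 32 genes higher and 27 lower, gave 54 higher and 43 lower with the stricter filter, 59 higher after median-ratio scaling and 58 after quantile normalization, 0 higher and 2 lower with plain moderation, and 16 to 29 higher and 10 to 26 lower without single HDM libraries. The higher calls were 54.2% of its calls, 68.6% after median-ratio scaling and 66.7% after quantile normalization. The siRNA difference with HDM was called lower in 1128 genes, in 674 with no filter and in 562 to 807 without single libraries. Its higher calls were 42.7% of all, and 55.3% after median-ratio scaling. With control siRNA the HDM response gave 126 to 218 higher and 53 to 111 lower genes without single libraries, and 47 lower with plain moderation, which gave 158 lower with LY96 siRNA.

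With a size limit of 0.5 in place of 0.25, 0 genes had a difference that grew and 0 one that crossed. The count without a model was 39 above and 18 below at a gap of at least 1. For 2 named genes near 0 the difference in response changed sign when single HDM libraries were left out: it ran from -0.0187 to 0.00875 for FADS1 and from -0.129 to 0.0766 for IFI27. Read depth is unknown, so what it limits could not be measured. With 1 PBS library per siRNA, the spread between PBS libraries could not be measured either.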
